A study of Arabidopsis thaliana with 16 samples.

Results

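Roots of the ein3eil1 double mutant were compared with roots of the wild type Col-0 in the absence of added ethylene, so that the comparison shows which transcripts differ when EIN3 and EIL1 are mutated and no ethylene is supplied. It rests on 4 of the 16 RNA-seq libraries of the series, 2 biological replicates of untreated Col-0 and 2 of untreated ein3eil1. The roots came from Arabidopsis thaliana seedlings kept for 6 d on upright plates of MS medium. The series also holds the rhd6rsl1 double mutant, the quadruple mutant ein3eil1rhd6rsl1, and all 4 genotypes after 4 h in 10 ppm ethylene. The sources used here do not name the mutant alleles, and effects of the ein3eil1 line and of the mutated genes cannot be told apart within these 4 libraries. Replicate libraries are described as biological, but whether they came from separate plates or days is not stated. The p-values measure the spread between replicate libraries, estimated over all 16 libraries of the series.

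Ethylene is a gaseous plant hormone that is bound by the receptors ETR1, ERS1, ETR2, ERS2 and EIN4 in the endoplasmic reticulum. Without ethylene the receptors keep the kinase CTR1 active, CTR1 holds EIN2 inactive, and the F-box proteins EBF1 and EBF2 direct the transcription factors EIN3 and EIL1 to degradation. With ethylene EIN3 and EIL1 accumulate and activate target genes, among which are EBF2 itself and several receptor genes. In roots the hormone restrains elongation and promotes root hairs, the tubular outgrowths of epidermal cells that take up water and nutrients.

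The 4 libraries held 33.0 M to 45.0 M assigned reads. Levels are given as CPM, the reads of a locus scaled to a common library size, and changes as log2 fold changes, ein3eil1 over Col-0, with their standard errors. Replicates correlated at r = 0.9969 in Col-0 and 0.9965 in ein3eil1 across loci, against 0.9905 to 0.9912 between the genotypes. The summed level of 10 shoot photosynthesis genes was 158 to 214 CPM in these libraries, against 764 CPM in replicate 1 of ethylene-treated Col-0 and 1300 CPM in replicate 1 of the ethylene-treated quadruple mutant. All 4 libraries carry the same code letter, Z, in their deposited files, and its meaning is not stated. Both comparisons set beside this one, the quadruple mutant against rhd6rsl1 without ethylene and ein3eil1 against Col-0 with ethylene, lie within the other letter, S, and share no library with it.

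The mutated genes themselves were checked first. EIN3 (AT3G20770) was at 154 and 148 CPM in Col-0 and at 30.1 and 33.0 CPM in ein3eil1. It was 4.78-fold lower, a log2 fold change of -2.26 ± 0.10 (edgeR adjusted p = 3.7e-10). EIL1 (AT2G27050) was at 61.3 and 64.2 CPM in Col-0 and at 14.4 and 12.0 CPM in ein3eil1, a log2 fold change of -2.25 ± 0.11 (edgeR adjusted p = 9.7e-10). Both genes matched the genotype labels in all 4 libraries, and neither transcript was absent from the mutant.

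Across 22304 tested loci, 1255 (5.63%) were called at an adjusted p below 0.05. Of these, 566 (2.54%) were higher in ein3eil1 and 689 (3.09%) were lower. In all 1255 the libraries of one genotype lay above both of the other. Of all tested loci, called or not, 27.5% were lower and 24.5% higher in ein3eil1 without overlap. The median log2 fold change of all tested loci was -0.01. A change of at least 2-fold was seen in 231 higher and 187 lower loci, and of at least 4-fold in 56 and 59. The median size was 0.84 among the higher loci and -0.67 among the lower. Leaving out any 1 of the 4 libraries reduced the count: to 575 without Col-0 replicate 1, 633 without Col-0 replicate 2, 665 without ein3eil1 replicate 1 and 514 without ein3eil1 replicate 2. Which direction held more calls depended on the libraries: 45.1% of the called loci were higher with all 4, against 48.9% without Col-0 replicate 1, 51.3% without Col-0 replicate 2, 58.6% without ein3eil1 replicate 1 and 51.6% without ein3eil1 replicate 2.

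**Figure D1:**
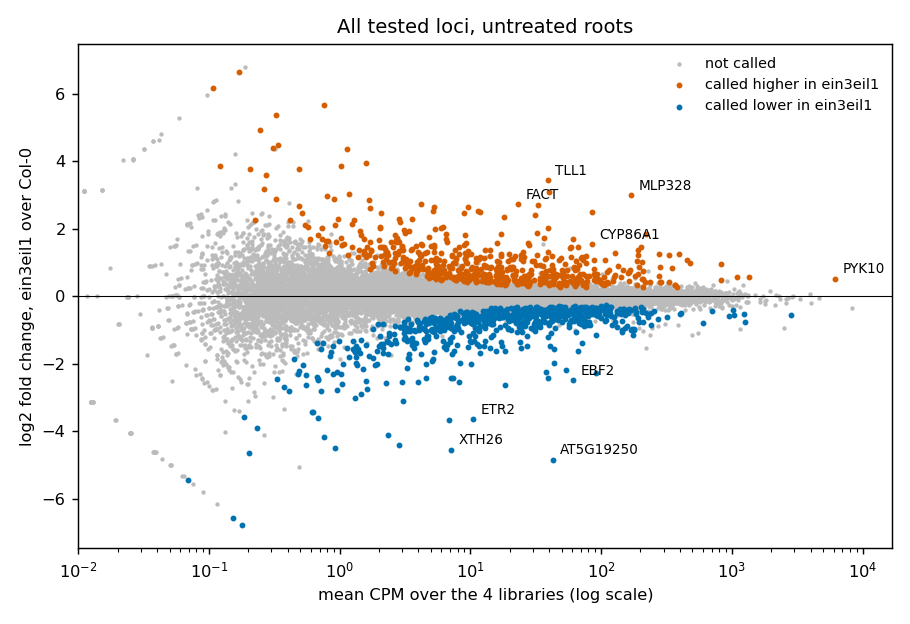
Each point is 1 tested locus, placed by its mean CPM over the 4 libraries (log scale, from 0.01 CPM) and its log2 fold change, ein3eil1 over Col-0, in untreated roots. The 566 loci called higher and the 689 called lower are coloured, the rest are grey, and 9 genes named in the text are labelled.

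Genes of the ethylene pathway fell in ein3eil1, mainly those that feed back on the pathway. ETR2, ERS1 and ERS2, all ethylene receptors, and EBF1 and EBF2, the F-box proteins that turn over EIN3, fell together with the ARGOS family of ethylene desensitising proteins. The upstream pathway genes ETR1, EIN4, CTR1 and EIN2 had fold changes below 0 as well but did not pass the edgeR test.

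Upstream sequence is shown for 4 lower genes that hold a match because EIN3 is a DNA-binding factor. The words searched were 8 spellings of a site known for EIN3 and related factors, and its shorter core ATGTA. The 8 spellings were ACGAACCT, ACGAATCT, ACGTACCT, ACGTATCT, ATGAACCT, ATGAATCT, ATGTACCT and ATGTATCT, on both strands. ATGTA lies within ATGTACCT and ATGTATCT. EBF2 and ETR2 had the lowest fold changes on the receptor and transduction lists among members at 5 CPM or more. AHP1, a histidine phosphotransfer protein, and ERS1 were added after their values were seen because they hold a longer word. EBF1, ARL and EIL1, also called lower, held neither ATGTA nor an 8-base word in the same window, and ARGOS, EIN3 and ERS2 held ATGTA alone. Of the other windows scanned, those of XTH26, RAP2.6 and Rap2.6L, called lower, held ATGTA alone. So did those of CYP86A1 and MLP328, called higher. The windows of AT5G19250, called lower, and FACT, called higher, held neither. Each line gives the 250 bases before the annotated start, 5′ to 3′ on the gene's strand, from RefSeq TAIR10.1. Capitals mark ATGTA or TACAT in EBF2 and ETR2 and the 8-base words in AHP1 and ERS1. The stretches are chr5:8797350-8797599 (minus strand) for EBF2, chr3:8254309-8254558 (plus) for ETR2, chr3:7579790-7580039 (minus) for AHP1 and chr2:17087327-17087576 (minus) for ERS1.
EBF2: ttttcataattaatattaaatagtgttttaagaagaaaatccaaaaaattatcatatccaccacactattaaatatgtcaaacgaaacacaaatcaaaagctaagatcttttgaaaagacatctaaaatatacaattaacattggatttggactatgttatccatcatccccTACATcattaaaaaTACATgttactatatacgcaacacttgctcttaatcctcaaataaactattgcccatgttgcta
ETR2: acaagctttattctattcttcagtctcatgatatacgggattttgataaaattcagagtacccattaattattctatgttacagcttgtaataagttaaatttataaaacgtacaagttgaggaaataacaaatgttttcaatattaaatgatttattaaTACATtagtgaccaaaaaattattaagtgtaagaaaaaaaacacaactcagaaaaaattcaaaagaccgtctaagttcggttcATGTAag
AHP1: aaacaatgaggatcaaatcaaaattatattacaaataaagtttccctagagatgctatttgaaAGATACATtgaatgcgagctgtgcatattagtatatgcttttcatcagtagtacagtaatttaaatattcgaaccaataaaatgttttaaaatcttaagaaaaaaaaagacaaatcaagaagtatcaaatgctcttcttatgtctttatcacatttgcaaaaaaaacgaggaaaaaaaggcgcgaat
ERS1: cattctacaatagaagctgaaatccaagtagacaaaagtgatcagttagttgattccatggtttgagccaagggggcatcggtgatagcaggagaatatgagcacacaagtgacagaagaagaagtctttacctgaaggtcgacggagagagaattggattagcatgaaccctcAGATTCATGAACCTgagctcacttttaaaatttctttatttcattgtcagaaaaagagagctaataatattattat

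EBF2 held TACAT at -78 to -74 and at -64 to -60, counted from the base before the start as -1. ETR2 held TACAT at -90 to -86 and ATGTA at -7 to -3. AHP1 held AGATACAT at -187 to -180. In ERS1, AGATTCAT at -76 to -69 and ATGAACCT at -70 to -63 overlapped. Of 21453 tested loci with a window from 250 bases before to 50 bases after the start, 56.4% held ATGTA and 6.78% held an 8-base word. The share with an 8-base word was 8% among loci called lower and 6.43% among those called higher, and for ATGTA it was 60.3% and 62.7%. Among loci called with at least a 4-fold change, 10.7% of the lower and 11.1% of the higher held an 8-base word. AGCCGCC, the GCC box bound by ERF factors, was in 0.811% of all windows, 1.19% of the lower loci and 0.714% of the higher loci. The shares are descriptions and were not tested.

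Receptor transcripts fell for 3 of 7 genes on the receptor list, with a list median of -0.21, beside 3.09% of all loci called lower. ETR2, a receptor, was at 19 and 19.8 CPM in Col-0 and at 1.76 and 1.39 CPM in ein3eil1. It was 12.4-fold lower, the lowest of the list (log2 fold change -3.64 ± 0.16, edgeR adjusted p = 3.7e-10). ERS1 stood at 129 and 135 CPM in Col-0 against 81.2 and 79.3 CPM in the mutant, a log2 fold change of -0.72 ± 0.079 (edgeR adjusted p = 2e-05). ERS2 stood at 8.18 and 8.67 CPM against 4.41 and 4.54 CPM (-0.91 ± 0.13, edgeR adjusted p = 0.0003). The libraries of the genotypes did not overlap for any of these 3 receptors, and 27.5% of all tested loci were lower in ein3eil1 without overlap. By contrast ETR1 gave a log2 fold change of -0.11 ± 0.10 and EIN4 of -0.01 ± 0.080, with edgeR adjusted p of 0.64 and 0.97. RTE1, a regulator of ETR1, gave -0.21 ± 0.15 (edgeR adjusted p = 0.53), and its homologue RTH -0.02 ± 0.12 (edgeR adjusted p = 0.96).

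Among 11 transduction genes, 5 were called lower and 0 higher, beside 3.09% of all loci called lower. All 11 had a fold change below 0, with a median of -0.34, beside 11409 of all 22304 tested loci below 0. The mutated genes EIN3 and EIL1 are 2 of the 5. EBF2 was at 101 and 106 CPM in Col-0 and at 20.7 and 16.3 CPM in ein3eil1, 5.61-fold lower (log2 fold change -2.49 ± 0.10, edgeR adjusted p = 2.4e-10). Ethylene-treated Col-0 was at 367 and 347 CPM, in libraries with the other code letter, so that the treatment and the letter cannot be told apart in levels set across them. EBF1 was at 128 and 123 CPM in Col-0 and 59.1 and 54.6 CPM in the mutant (-1.14 ± 0.081, edgeR adjusted p = 1.3e-07). EIL2, a paralogue of EIN3, was low throughout, at 0.748 and 1.77 CPM against 0.122 and 0.220 CPM (-2.80 ± 0.58, edgeR adjusted p = 0.0073).  CTR1 gave -0.34 ± 0.10 and EIN2 -0.18 ± 0.11, with edgeR adjusted p of 0.059 and 0.41. DESeq2 and a fit of only these 4 libraries each called 6 transduction genes lower. Over all loci they called 842 and 1177 lower, against 689 in the main fit. The call of EIL2 was lost without Col-0 replicate 2 and without either ein3eil1 library, where the adjusted p reached 0.13.

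The ARGOS family lowers ethylene sensitivity and is itself raised by the hormone. ARL was at 5.21 and 5.71 CPM in Col-0 and at 0.547 and 0.705 CPM in ein3eil1 (-3.09 ± 0.27, edgeR adjusted p = 2e-06), and ARGOS was at 2.89 and 3.06 CPM against 0.760 and 0.705 CPM (-2.03 ± 0.19, edgeR adjusted p = 4.7e-06). OSR1 was at 0.773 and 0.364 CPM against 0.0608 and 0.132 CPM (-2.45 ± 0.55, edgeR adjusted p = 0.012), and its call was lost without Col-0 replicate 1 and without either ein3eil1 library, at an adjusted p of up to 0.22. The fourth member, OSR2, did not pass the filter on low counts and was listed at 0 CPM in all 4 libraries. In Col-0 with ethylene ARGOS stood at 89.4 and 91.7 CPM and ARL at 116 and 116 CPM, again in libraries with the other letter.

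Of 26 tested ERF and EDF factors, 5 were called lower and 0 higher, with a median of -0.21, beside 3.09% and 2.54% of all loci. EBP was at 16.3 and 12.8 CPM in Col-0 and 5.41 and 6.04 CPM in ein3eil1 (-1.34 ± 0.19, edgeR adjusted p = 0.00026). ERF2 (-1.37), ERF1A (-0.55), ERF4 (-0.43) and RAP2.2 (-0.32) were also called, and each of these 4 lost its call without Col-0 replicate 1 and without ein3eil1 replicate 2, at adjusted p of up to 0.15, 0.25, 0.32 and 0.26. Away from the list, the ERF factors RAP2.6 and Rap2.6L were among the 14 largest falls. RAP2.6 was at 34.7 and 28.7 CPM in Col-0 and 4.38 and 5.73 CPM in the mutant (-2.64 ± 0.15, edgeR adjusted p = 1e-08). Rap2.6L was at 15.3 and 17.1 CPM against 4.29 and 3.83 CPM (-2.0 ± 0.12, edgeR adjusted p = 1.9e-08).

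Genes that make ethylene were called in both directions. On the list of 15 tested biosynthesis genes, 1 was called higher and 2 lower, beside 2.54% and 3.09% of all loci. The list median was -0.26. DESeq2 called 4 lower and the fit of only these 4 libraries 5, each with 1 higher. Over all loci these runs called 842 and 1177 lower, against 689 in the main fit. ACO5, an ACC oxidase (the enzyme of the last step), fell from 309 and 313 CPM to 180 and 162 CPM (-0.86 ± 0.098, edgeR adjusted p = 3.3e-05). ACS11, an ACC synthase, fell from 3.17 and 3.43 CPM to 1.22 and 1.39 CPM (-1.33 ± 0.28, edgeR adjusted p = 0.0076). ACO1 rose from 7.65 and 8.44 CPM to 10.3 and 11.1 CPM (0.42 ± 0.11, edgeR adjusted p = 0.029), and without any 1 of the 4 libraries it was not called, at an adjusted p of up to 0.24. ACS11 was not called without Col-0 replicate 2 or either ein3eil1 library, at up to 0.085. The lowest fold change of the list, -5.0, was that of ACS9, which was at 0.0997 and 0.104 CPM in Col-0 and at 0 in both mutant libraries, and was not called.

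**Figure D2:**
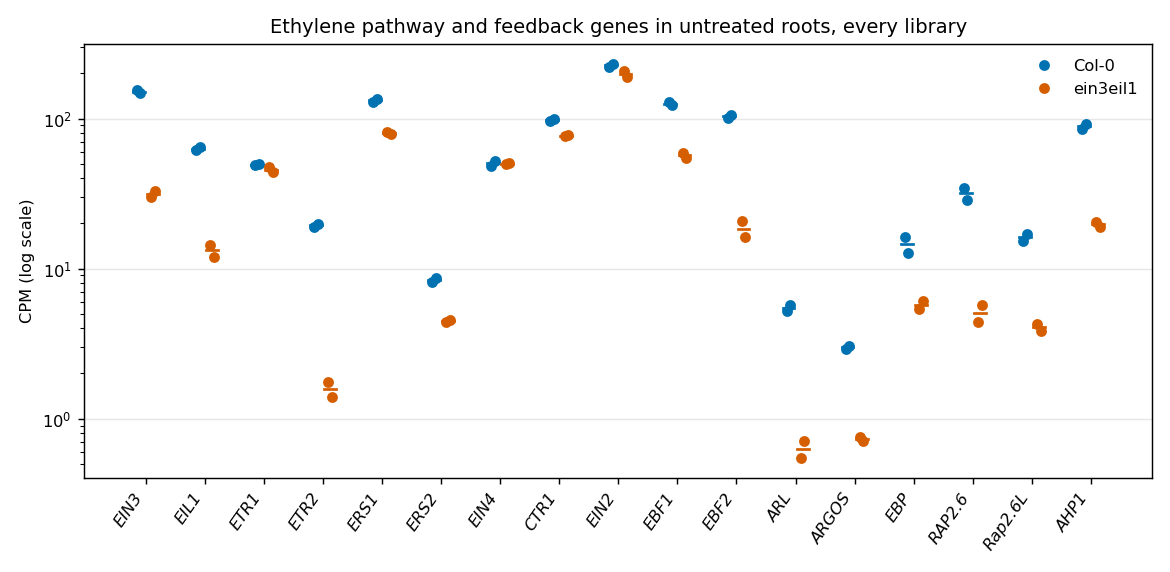
The level of 17 ethylene-related genes in untreated roots, in CPM on a log scale. Points are the single libraries, 2 of Col-0 and 2 of ein3eil1, and short lines are the group means. EIN3, EIL1, ETR2, ERS1, ERS2, EBF1, EBF2, ARL, ARGOS, EBP, RAP2.6, Rap2.6L and AHP1 were called lower, while ETR1, EIN4, CTR1 and EIN2 were not called.

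Genes of root hair growth were lower in ein3eil1 as a group. Of the 9 bHLH factors known to switch them on, 8 had fold changes below 0, but 0 were called. Of 40 root hair growth and wall genes, 23 were called lower, 0 higher and 17 not at all, beside 3.09% of all loci called lower. The median log2 fold change was -0.69, all 40 lay below 0, and in all 40 both mutant libraries lay below both Col-0 libraries, which was so for 27.5% of all tested loci. Summed over the list, the level was 4550 and 4930 CPM in Col-0 and 3170 and 3110 CPM in ein3eil1. In RNA from whole roots, fewer hair cells and less RNA per hair cell cannot be told apart.

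Wall-loosening and wall proteins led the list. XTH26, a xyloglucan endotransglucosylase, was at 12.3 and 15.0 CPM in Col-0 and at 0.486 and 0.661 CPM in ein3eil1. It was 23.2-fold lower (-4.54 ± 0.39, edgeR adjusted p = 5.4e-06), the lowest of the 40. Its relatives XTH12 (-1.21 ± 0.23, edgeR adjusted p = 0.0035) and XTH13 (-1.13 ± 0.23, edgeR adjusted p = 0.0055) fell less, and as neighbouring near copies their reads may have been shared. The proline-rich wall protein PRP1 was at 88.8 and 110 CPM against 34.0 and 30.8 CPM (-1.62 ± 0.45, edgeR adjusted p = 0.044). RHS19, a peroxidase of hair cells, was at 235 and 249 CPM against 109 and 109 CPM (-1.15 ± 0.23, edgeR adjusted p = 0.0054). RHS10, a receptor-like kinase, was at 86.2 and 84.7 CPM against 48.8 and 50.7 CPM (-0.78 ± 0.10, edgeR adjusted p = 0.00014). Called members also included the expansin EXPA18 (-0.64), the leucine-rich repeat extensin LRX2 (-0.69), the arabinogalactan protein AGP3 (-0.76) and the proton pump AHA7 (-0.75). The remaining root hair-specific or hair morphogenesis genes called lower were RHS2 (-0.72), RHS13 (-0.84), RHS14 (-1.01), RHS15 (-1.09), RHS16 (-0.69), RHS17 (-0.63), CAP1 (-0.68) and MRH6 (-0.66).

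Tip growth genes moved by smaller amounts. RHD2, the NADPH oxidase of the hair tip, was at 98.5 and 104 CPM against 76.4 and 71.8 CPM (-0.45 ± 0.11, edgeR adjusted p = 0.018). PIP5K3, a phosphoinositide kinase (-0.69), COW1, a phosphatidylinositol transfer protein (-0.67), MRH2, a kinesin (-0.54), and SHV2, a COBRA-like protein (-0.40), were called as well. ROP2, a small GTPase of polar growth, gave -0.11 ± 0.083 and its regulator SCN1 -0.10 ± 0.081, with edgeR adjusted p of 0.56 and 0.57. The receptor kinase FER gave -0.21 ± 0.095 and the cellulose synthase-like CSLD3 -0.28 ± 0.12, with edgeR adjusted p of 0.27 and 0.22. EXPA7 was at 91.5 and 102 CPM against 65.6 and 65.1 CPM (-0.57 ± 0.22) and was not called (edgeR adjusted p = 0.19). The number called lower was 12 without Col-0 replicate 1, 4 without Col-0 replicate 2, 9 without ein3eil1 replicate 1 and 4 without ein3eil1 replicate 2. DESeq2 called 16, and PRP1, XTH12, XTH13, RHS19, RHS13, RHS14, RHS15, COW1 and AGP3 were not among them (DESeq2 adjusted p from 0.11 in COW1 to 0.74 in RHS14 and RHS15). A fit of only these 4 libraries called 33. That fit called more loci in general, 1177 of 21320 lower against 689 of 22304.

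None of 9 root hair bHLH factors was called (edgeR, 0 of 9), beside 5.63% of all loci, and their median was -0.31. DESeq2 called 1 lower, and a fit of only these 4 libraries called 4 lower, so that their call depended on the fit. Over all loci these runs called 842 and 1177 lower, against 689 in the main fit. RHD6, which starts hair formation, was at 24.2 and 23.5 CPM in Col-0 and 20.9 and 21.7 CPM in ein3eil1 (-0.16 ± 0.096, edgeR adjusted p = 0.42). RSL4, which drives hair elongation, was at 14.9 and 17.9 CPM against 11.4 and 12.1 CPM (-0.48 ± 0.23, edgeR adjusted p = 0.30), and RSL2 at 31.4 and 28.3 CPM against 23.2 and 25.0 CPM (-0.31 ± 0.13, edgeR adjusted p = 0.22). The libraries did not overlap for 7 of the 9 factors, all lower in ein3eil1, beside 27.5% of all loci. LRL3 gave -0.44 ± 0.13 (edgeR adjusted p = 0.070). RSL5 was at 0.349 and 0.156 CPM in Col-0 and at 0 and 0.0881 CPM in ein3eil1, too low to tell apart at this depth. Among 12 epidermal patterning genes 1 (8.33%) was called, near the 5.63% of all loci. It was SCM, the receptor-like kinase that positions hair cells, which rose from 17.4 and 14.3 CPM to 32.3 and 39.2 CPM (1.17 ± 0.14, edgeR adjusted p = 5.9e-05).

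**Figure D3:**
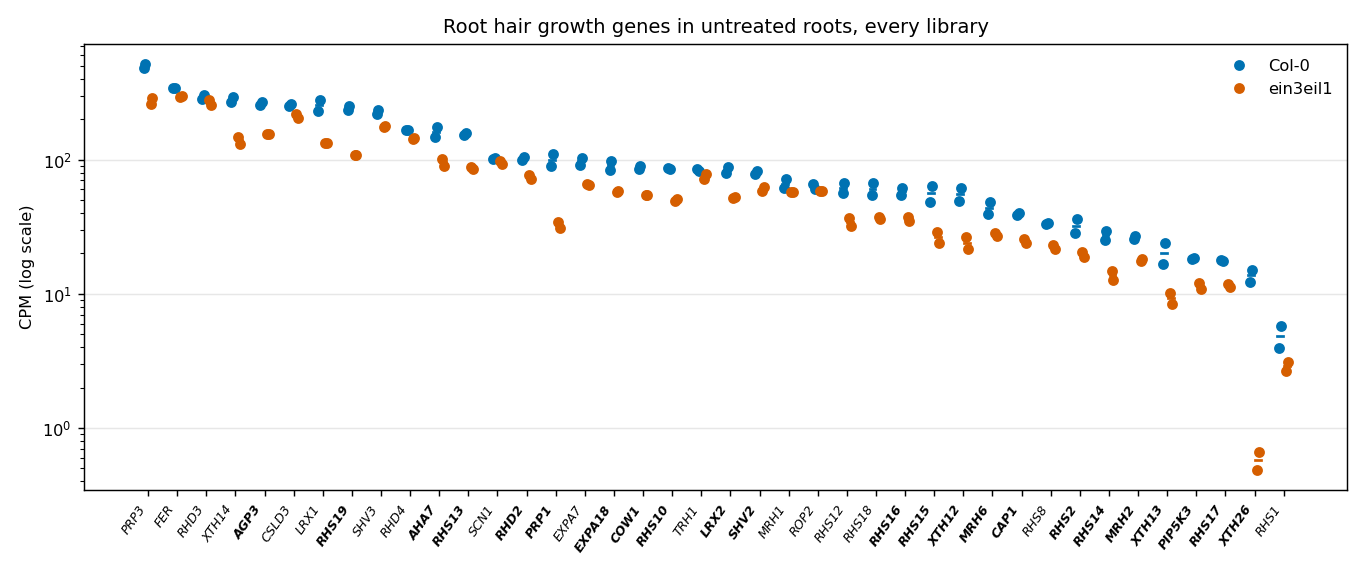
The level of the 40 root hair growth genes in untreated roots, in CPM on a log scale, ordered by their mean in Col-0. Points are the single libraries and short lines the group means, names in bold are the 23 called lower, and in all 40 both ein3eil1 libraries lie below both of Col-0.

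The list was also compared in rhd6rsl1, which lacks root hairs. Untreated rhd6rsl1 held 1360 and 1370 CPM over the 40 genes, with 23 of them at a mean under 1 CPM, too low to compare well. RHS19, for example, was at 0.244 and 0.285 CPM in rhd6rsl1 and at 0.284 and 0.235 CPM in the quadruple mutant. Of the 40, 2 were called lower and 0 higher in the quadruple mutant against rhd6rsl1, beside 2.37% of all loci called lower. The list median was -0.15 there, against -0.69 in the Col-0 background. Those called were LRX2 and RHD2, with log2 fold changes of -0.62 and -0.41 (edgeR adjusted p = 0.0068 and 0.044).

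The largest rises in ein3eil1 included several genes of the suberin and surface lipid pathways. Suberin is the lipid polymer that seals endodermal cells. On the list of 5 suberin genes, 4 were called higher, beside 2.54% of all loci, with a median of 1.02. CYP86A1, a fatty acid hydroxylase of suberin synthesis, rose from 45.0 and 40.8 CPM to 133 and 119 CPM, 2.94-fold (1.56 ± 0.20, edgeR adjusted p = 0.00012). The acyltransferase GPAT5 rose from 12.1 and 9.92 CPM to 22.2 and 22.4 CPM (1.02 ± 0.19, edgeR adjusted p = 0.0028), and the fatty acyl reductase FAR4 from 13.9 and 11.6 CPM to 22.7 and 29.8 CPM (1.04 ± 0.19, edgeR adjusted p = 0.0026). CYP86B1 rose from 15.6 and 14.1 CPM to 27.1 and 25.5 CPM (0.82 ± 0.23, edgeR adjusted p = 0.047). The feruloyl transferase ASFT was the exception, at 129 and 122 CPM against 99.9 and 104 CPM (-0.30 ± 0.13, edgeR adjusted p = 0.22). CYP86A1 kept its call in every alternative run. CYP86B1 lost it without any 1 library and with DESeq2 or its size factors (adjusted p up to 0.26), GPAT5 without Col-0 replicate 2 (0.053) and FAR4 without ein3eil1 replicate 2 (0.065).

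FACT, which makes alkyl caffeates of root waxes, rose from 7.33 and 4.83 CPM to 38.6 and 42.3 CPM, 6.64-fold (2.73 ± 0.23, edgeR adjusted p = 1.2e-06). FAR1, another fatty acyl reductase, rose from 3.19 and 2.26 CPM to 11.9 and 18.3 CPM (2.47 ± 0.37, edgeR adjusted p = 0.00045). A second list of 15 suberin and root wax genes, drawn up after the values had been seen, had a median of 0.32. It included FACT and FAR1, already known as large rises. Of the 15, 6 were called higher and 0 lower, beside 2.54% and 3.09% of all loci. Besides FACT and FAR1 these were FAR5 (1.21), the transporter ABCG2 (0.94), GPAT7 (0.91) and the MYB factor MYB93 (1.39). KCS2, KCS20, ABCG6, ABCG20, MYB9, MYB39, MYB41, MYB53 and MYB92 were not called. Casparian strip and endodermis genes did not move alike: of 11 tested, 1 was called, CASP5, a membrane protein of the Casparian strip list, which fell from 34.3 and 33.4 CPM to 16.4 and 20.2 CPM (-0.88 ± 0.14, edgeR adjusted p = 0.00087).

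Among called loci with a mean of at least 5 CPM, the largest rise was that of TLL1, a lipase-like gene, from 7.35 and 5.90 CPM to 68.8 and 75.4 CPM, 10.9-fold (3.44 ± 0.29, edgeR adjusted p = 1.2e-06). AT3G58550 and AT2G18370, both annotated as lipid-transfer proteins, rose by 3.1 ± 0.31 and 2.72 ± 0.25. MLP328, a major latex protein-like gene, rose from 39.4 and 35.5 CPM to 287 and 315 CPM (3.01 ± 0.19, edgeR adjusted p = 4.8e-08). Its neighbour MLP329 rose less, by 0.76 ± 0.13 (edgeR adjusted p = 0.0017), and reads shared between such copies could affect both. The others of the 14 were the oxygenase AT1G14120 (2.65), the ABC transporter ABCA8 (2.64), AT2G18360 (2.53), the NAC factor NAC038 (2.53), the sterol desaturase CYP710A4 (2.51), the peroxidase AT2G38390 (2.51), AT4G28940 (2.4) and AT4G23680 (2.37). AT2G18360 adjoins AT2G18370 on the chromosome.

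Among the 14 largest falls at the same minimum level, AT5G19250, annotated as a GPI-anchored glycoprotein, led with 86.4 and 78.0 CPM in Col-0 and 2.71 and 2.97 CPM in ein3eil1. It was 28.8-fold lower (-4.85 ± 0.12, edgeR adjusted p = 8.5e-14). AHP1, which passes phosphate in cytokinin signalling, was at 85.3 and 92.6 CPM against 20.5 and 18.8 CPM (-2.18 ± 0.11, edgeR adjusted p = 1.3e-09). AHP1 lies 0.32 Mb from EIN3, and 28 of 417 tested loci (6.71%) within 1 Mb of EIN3 were called, as were 25 of 362 (6.91%) around EIL1, against 5.63% overall. LEA7, a late embryogenesis abundant protein, was at 17.5 and 7.79 CPM against 1.43 and 0.639 CPM (-3.67 ± 0.56, edgeR adjusted p = 0.00055), with a wide spread between replicates. The rest were E12A11 (-2.55), a phosphatidylethanolamine-binding protein also named MFT, the acyltransferase AT2G39980 (-2.43), AT5G09570 (-2.42) and the glycine-rich AT2G05510 (-2.41), besides XTH26, ETR2, EBF2, RAP2.6, Rap2.6L, EIN3 and EIL1. Being picked as the largest called changes in these same libraries, the 14 rises and 14 falls were likely to keep their calls. List members were taken at any size. All 28 genes of the largest rises and falls stayed called under each of 13 alternatives, whereas 56 of the 83 called list members lost the call under at least 1, and 38 of these did so only when a library was left out.

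Of 24 iron genes, 4 were called lower and 1 higher (median -0.10), but without Col-0 replicate 2 there were 0 lower and 5 higher. With all 4 libraries, 3.09% of all tested loci were called lower and 2.54% higher. The summed level of the iron list was 2480 and 3720 CPM in Col-0 and 3010 and 3260 CPM in ein3eil1, so the Col-0 replicates lay on either side of the mutant. A fit with no filter on low counts called 7 lower and 6 higher. The iron store ferritin FER1 fell from 201 and 211 CPM to 113 and 109 CPM (-0.89 ± 0.17, edgeR adjusted p = 0.0041), and the citrate exporter FRD3 (-0.76), the transporter IRT2 (-1.02) and the ubiquitin ligase BTS (-0.42) fell too. NAS2, a nicotianamine synthase, rose by 1.07 ± 0.19 (edgeR adjusted p = 0.0024). Without Col-0 replicate 2 FER1, FRD3, IRT2 and BTS were not called, at adjusted p of up to 0.081, 0.062, 0.057 and 0.45 over the alternatives. FER1 was also lost without either ein3eil1 library. BTS was lost without any 1 library, with either replicate block and under the stricter filter.

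The phosphate starvation genes SPX1 (-0.80), PAP17 (-0.89), RNS1 (-0.92) and PHT1;4 (-0.56) were called lower out of 19 tested, and 0 were called higher, beside 3.09% and 2.54% of all loci. On this list 16 fold changes lay below 0, as did 11409 of all 22304 tested loci, and 13 genes were lower without overlap, beside 27.5% of all loci. Each lost its call without at least 1 library, at adjusted p of up to 0.067, 0.11, 0.11 and 0.19, and between them all 4 libraries had this effect. SULTR1;1, a root sulfate transporter, fell from 18.1 and 18 CPM to 6.35 and 4.98 CPM (-1.68 ± 0.20, edgeR adjusted p = 4.5e-05), and LSU1, a marker of sulfur shortage, fell by 1.23 on the log2 scale (edgeR adjusted p = 0.022). On the sulfur list 8 of 9 fold changes lay below 0, and 5 genes were lower without overlap. LSU1 was not called without either Col-0 library or without ein3eil1 replicate 2, at up to 0.32.

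In the nitrogen list of 10, 2 were called higher and 1 lower, beside 2.54% and 3.09% of all loci. The nitrate transporter NRT1.8 fell (-1.92 ± 0.27, edgeR adjusted p = 0.00031). Nitrate reductase NIA1 rose from 41.3 and 42.5 CPM to 79.4 and 94.7 CPM (1.06 ± 0.14, edgeR adjusted p = 0.00017). NRT2.1, a high-affinity nitrate transporter, rose by 1.35 ± 0.34 (edgeR adjusted p = 0.026) and was not called without any 1 of the 4 libraries (up to 0.22).

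Of 29 auxin response genes, 3 were called lower and 0 higher (median -0.11), beside 3.09% and 2.54% of all loci. They were IAA4 (-0.50 ± 0.084, edgeR adjusted p = 0.0014), and the conjugating enzymes GH3.2 (-0.67) and GH3.3 (-0.69). Of 15 auxin biosynthesis genes, 4 were called higher and 1 lower (median 0.13), and without Col-0 replicate 2 none was called in either direction. The higher ones were YUC6 (0.53), CYP79B2 (0.44), NIT2 (0.40) and ASB1 (0.39), and the lower one was YUC7, at 0.872 and 0.571 CPM against 0.0608 and 0.132 CPM. All of these but IAA4 lost the call without Col-0 replicate 2, and their highest adjusted p over the alternatives ran from 0.065 in NIT2 to 0.44 in GH3.3. NIT2 has close copies among which reads could be split. No auxin transport gene of 14 passed the test (edgeR, 0 called).

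Of 19 tested defence genes, 4 were called lower and 3 higher, beside 3.09% and 2.54% of all loci. HEL, a chitin-binding pathogenesis-related protein, fell from 205 and 180 CPM to 85.7 and 108 CPM (-0.99 ± 0.16, edgeR adjusted p = 0.00069), and OSM34, an osmotin, from 48.4 and 31.8 CPM to 11.6 and 17.3 CPM (-1.46 ± 0.21, edgeR adjusted p = 0.00037). The chitinase HCHIB (-0.67) and FLS2 (-2.22, under 1 CPM in all 4 libraries) were the other two called lower. VSP1, a jasmonate-responsive protein, rose (1.52 ± 0.23, edgeR adjusted p = 0.00058), as did PAD3 of camalexin synthesis (0.94) and the ER body glucosidase PYK10, from 5150 and 5020 CPM to 6840 and 7760 CPM (0.52 ± 0.11, edgeR adjusted p = 0.0069). HCHIB lost its call under DESeq2, the replicate block and without 3 of the libraries (Col-0 replicate 1 and both of ein3eil1), at up to 0.58. FLS2 lost it without either Col-0 library or ein3eil1 replicate 2 (up to 0.36), PAD3 without Col-0 replicate 1 or ein3eil1 replicate 2 (0.097), and PYK10 without Col-0 replicate 2 or ein3eil1 replicate 2 (0.096).

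Other root programmes gave 0 to 2 calls a list, beside 5.63% of all loci called. Of all 22304 tested loci, 10873 had a fold change above 0, and 24.5% were higher in ein3eil1 without overlap. This was so for 11 of 12 vascular markers and 8 of 18 cell cycle and meristem genes, with 0 lower without overlap on either list. All 12 vascular markers had a fold change above 0 (median 0.21), and 1 of them, the sucrose carrier SUC2, was called (0.39 ± 0.098, edgeR adjusted p = 0.024), but not without Col-0 replicate 1 or either ein3eil1 library (up to 0.29). Of 18 cell cycle and meristem genes 1 was called, CYCD3;1 (0.58), and of 10 cold and cytokinin genes 1, the response regulator ARR7 (1.31); neither was called without Col-0 replicate 2 or ein3eil1 replicate 2, at up to 0.20 and 0.076. The low-oxygen genes LBD41 (1.09 ± 0.19) and PCO1 (1.35 ± 0.32) were called higher, 2 of 7 (edgeR adjusted p = 0.0019 and 0.017), and PCO1 lost its call without Col-0 replicate 2 or either ein3eil1 library (up to 0.21). The touch gene TCH3 was called higher, 1 of 8 on its list (0.45 ± 0.12, edgeR adjusted p = 0.039), but not without Col-0 replicate 1 or ein3eil1 replicate 2, or with first transcript models (up to 0.41). Flavonoid (7), clock (12), root cap (5) and shoot photosynthesis (10) genes gave 0 calls with edgeR.

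**Figure D4:**
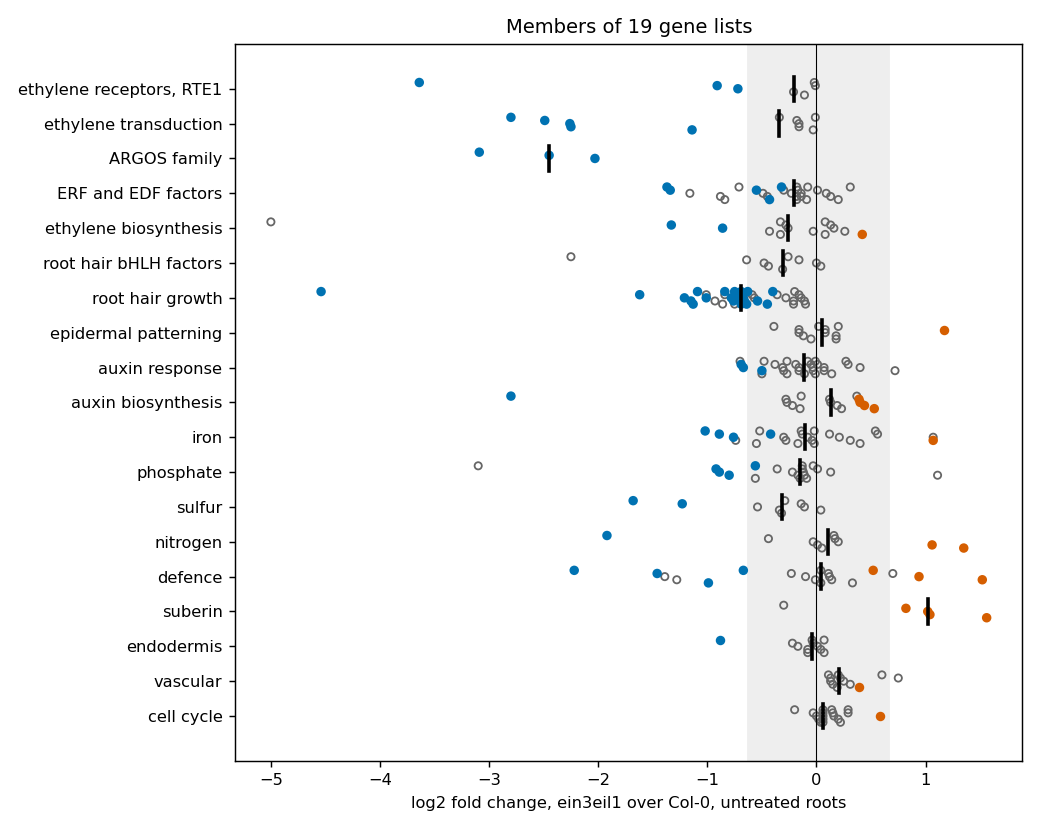
Log2 fold changes, ein3eil1 over Col-0 in untreated roots, of the tested members of 19 gene lists. Filled points were called (orange higher, blue lower), open points were not, short vertical lines are list medians, and the grey band holds the central 90% of all tested loci, from -0.63 to 0.67. The ARGOS and root hair growth medians lie below the band and the suberin median above it.

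The same mutant genes were then compared without root hairs. The quadruple mutant against rhd6rsl1, both untreated, gave 965 called loci (4.33%), 436 higher (1.95%) and 529 lower (2.37%). Of the 566 loci higher in ein3eil1, 251 (44.3%) were called higher here as well, which is 57.6% of the 436. Of the 689 lower loci, 288 (41.8%) were called lower, 54.4% of the 529. Fold changes had the same sign for 534 of the 566 and 609 of the 689, and 4 loci were called the opposite way. Across the 15507 loci with a mean of at least 5 CPM, the fold changes of both comparisons correlated at r = 0.641, a description over loci, which are not independent. The quadruple mutant's replicate 1 decided much of the count: without it 3357 loci were called, of which 551 shared a call and direction with those in Col-0, against 539 with it. The shared number was 359 without rhd6rsl1 replicate 1, 329 without rhd6rsl1 replicate 2 and 364 without the quadruple mutant's replicate 2, and 411 when only those groups entered the fit.

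EBF2 (-2.72), ETR2 (-3.92), ARL (-3.19), ARGOS (-2.55) and MLP328 (3.13) changed in rhd6rsl1 roots by amounts near those in Col-0 roots. EIL1 gave -1.48 there against -2.25, and the difference did not pass the test (edgeR adjusted p = 0.071). LBD41 gave -0.46 against 1.09, a called difference (edgeR adjusted p = 0.043). CYP86A1 gave 0.67 (edgeR adjusted p = 0.064) and 0 of the 5 suberin list members were called in that background, but the difference was not called for any of these genes: it had an edgeR adjusted p of 0.53 for CYP86A1, 0.55 for GPAT5, 0.69 for FAR4 and 1.0 for CYP86B1 and ASFT.

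The difference between both backgrounds was called at 13 loci (0.0583%), 4 with a positive difference (0.0179%) and 9 with a negative one (0.0404%), with 1119 at an unadjusted p below 0.05. DESeq2 called 65, with 32 positive and 33 negative. Without the quadruple mutant's replicate 1 there were 261, with 215 positive and 46 negative, so the mostly negative balance held under neither. AT5G19250 stood out. It was at 64.9 and 68.8 CPM in rhd6rsl1 and at 59.1 and 71.7 CPM in the quadruple mutant, so the fall seen in ein3eil1 was not seen there, and the fold changes differed by -4.81 ± 0.15 (edgeR adjusted p = 4.1e-12). With ethylene, ein3eil1 was again low, at 1.88 and 2.05 CPM, and the quadruple mutant was at 104 and 103 CPM. AT5G35935 had the same order, at 25.9 and 25.3 CPM in Col-0, 8.91 and 9.74 CPM in ein3eil1, 21.0 and 23.7 CPM in rhd6rsl1 and 24.2 and 21.8 CPM in the quadruple mutant. ARP9, an actin-related protein, was the reverse: 16.7 and 16.1 CPM in Col-0, 33.6 and 34.2 CPM in ein3eil1, 21.2 and 21.3 CPM in rhd6rsl1 and 16.5 and 15.9 CPM in the quadruple mutant. For these 3 loci the ein3eil1 line and the quadruple mutant differed although both are labelled mutant in EIN3 and EIL1, and an effect of the line and of RHD6/RSL1 cannot be told apart.

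With ethylene, ein3eil1 differed from Col-0 at 5649 loci (25.3%), 3142 higher (14.1%) and 2507 lower (11.2%). Replicate 1 of treated Col-0, the library high in shoot photosynthesis transcripts, is in this comparison: 4 of the 10 shoot genes were called lower, with a list median of -3.43, and their part in the other calls was not tested. Without that library 4489 loci were called, of which 811 shared a call and direction with untreated roots, against 889 with it. Of the 566 loci higher without ethylene, 410 (72.4%) were also higher with it, and of the 689 lower, 479 (69.5%) were also lower, which is 13% and 19.1% of the loci called with ethylene. Another 26 and 40 were called the opposite way. Both of the other comparisons called 224 of the 566 and 236 of the 689 in the same direction. The fold change differed between untreated and treated roots at 2727 loci (12.2%), in 1022 (4.58%) being more positive without ethylene and in 1705 (7.64%) more negative. These held 424 of the 1255. Of these 424, 245 had the same sign and a larger fold change with ethylene, 31 the same sign and a smaller one, and 148 the opposite sign.

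EBF2 gave -4.76 with ethylene against -2.49 without, a difference of 2.27 (edgeR adjusted p = 9.6e-09), and ETR2 gave -6.16 against -3.64 (edgeR adjusted p = 2.4e-06). AHP1 (-3.57 against -2.18) and ARGOS (-7.60 against -2.03) did likewise, with edgeR adjusted p of 5e-06 and 2.1e-09 for the difference. EIN3 (-2.24) and EIL1 (-2.20) had nearly the same fold change as without ethylene, with edgeR adjusted p for the difference of 0.97 and 0.87. MLP328 gave 3.08 against 3.01 and TLL1 3.19 against 3.44, with 0.91 and 0.76. CASP5 turned, at 11.7 and 8.31 CPM in treated Col-0 and 24.5 and 18.6 CPM in treated ein3eil1 (1.11 ± 0.15 against -0.88 ± 0.14, edgeR adjusted p for the difference = 3.6e-06). TCH3 turned the other way (-2.77 ± 0.13 against 0.45 ± 0.12, edgeR adjusted p = 1.7e-09).

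**Figure D5:**
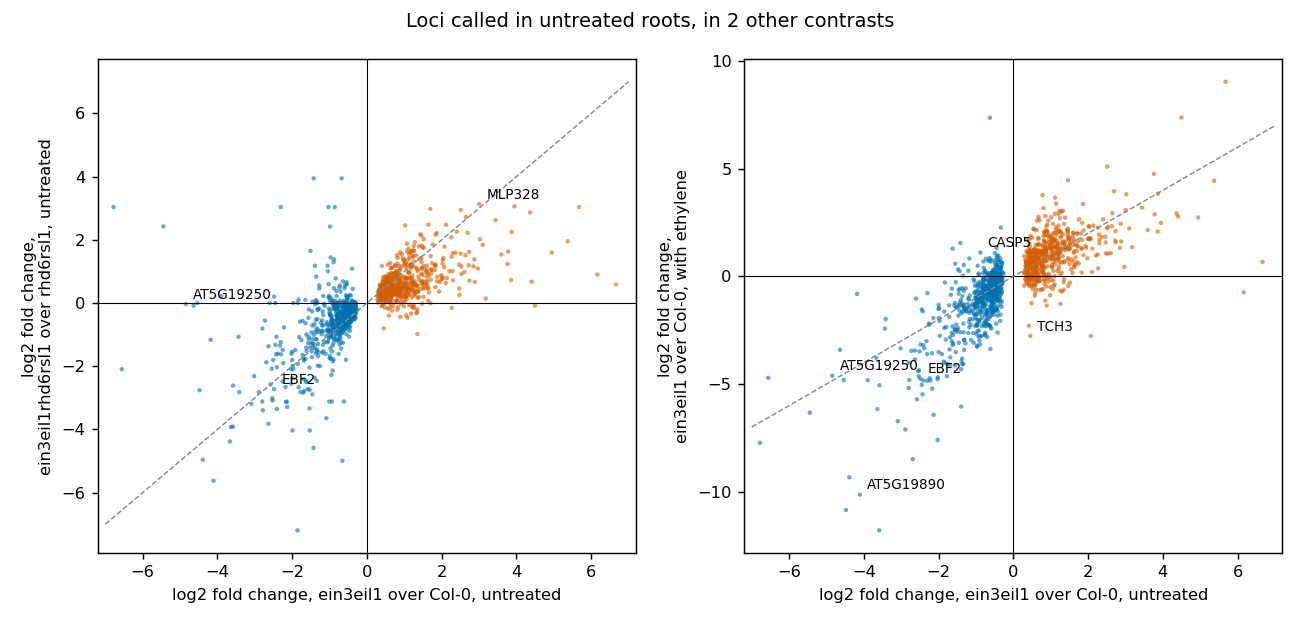
The 1255 loci called in untreated roots, by their log2 fold change there (x axis) and in the other comparisons (y axes): the quadruple mutant over rhd6rsl1 without ethylene on the left, and ein3eil1 over Col-0 with ethylene on the right. Orange loci were higher and blue loci lower in untreated ein3eil1, and the dashed line marks equal changes. AT5G19250 lies near 0 on the left axis, at -0.03, and near the dashed line on the right.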

How the data were processed

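Per the labels' protocols, root RNA was made into standard Illumina mRNA-seq libraries, and per the submitters' processing notes alignment used BWA 0.7.7 and the build TAIR10. Per the file headers, the deposited files give a raw read count for each of 39640 transcript models. No source used here names the counting tool or its strand setting, so antisense and overlapping genes cannot be told apart. The authors' RPKM was not used.

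Counts were summed to 33518 loci (32709 matched the TAIR10.1 annotation, used for names and promoters). The filter filterByExpr left 22304. All 16 libraries entered 1 model of 8 group means in edgeR 4.0.16 (R 4.3.3), with TMM scaling, the quasi-likelihood F test and Benjamini-Hochberg adjustment over all loci. Calls were made below an adjusted p of 0.05. All adjusted p-values are from edgeR unless DESeq2 1.42.0 is named. Standard errors were taken as the absolute log2 fold change divided by the root of its F value, and the common biological coefficient of variation was 0.0938. The scripts were tested on simulated data. With 2 libraries a group, the values of both are printed in place of a mean.

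Genes named are EIN3, EIL1, EBF2, the 14 largest rises and falls among called loci with at least 5 CPM and no overlap, called members of 27 gene lists, and the 5 largest of each difference in each direction. The comparison, its members and the lists (384 members, 367 tested) were chosen with earlier results of these data known. Alternatives tried were other scaling, DESeq2, other filters, fewer groups or libraries, first transcript models, replicate blocks and leaving out each library. Python 3.11.15, pandas 2.3.3 and matplotlib 3.10.9 were used.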

Additional observations from a re-analysis of the deposited data

Results flagged for a closer look

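The EIN3/EIL1 effect differed between untreated backgrounds at 13 loci, by the test of the difference itself, and each value here is the log2 fold change in the Col-0 background minus that in the rhd6rsl1 background. AT5G19250 differed by -4.81, AT5G35935 by -1.50 and AT1G59850 by -1.63, being lower in ein3eil1 and not lower in the quadruple mutant. ARP9 (1.44) and TCH3 (1.26) were higher in ein3eil1 and lower in the quadruple mutant. SQP2 (-1.90) and the kinase gene AT2G19410 (-1.76) were not called between ein3eil1 and Col-0 and were higher in the quadruple mutant than in rhd6rsl1. TCH3 lost its call without rhd6rsl1 replicate 1 or ein3eil1 replicate 2, where its adjusted p reached 0.085. AT1G59850 was not called without rhd6rsl1 replicate 1, Col-0 replicate 2 or ein3eil1 replicate 2 (up to 0.15). For AT2G19410 this held without either rhd6rsl1 library, the quadruple mutant's replicate 2, Col-0 replicate 2 or ein3eil1 replicate 2 (up to 0.22).

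The effect differed between untreated and ethylene-treated roots at 2727 loci, again by the test of the difference, here untreated minus treated. Genes lower in untreated ein3eil1 that were lower still with ethylene were EBF2 (2.27), ETR2 (2.53), RAP2.6 (0.81), E12A11 (1.86), AT2G39980 (3.04), AT2G05510 (2.43), AHP1 (1.39) and Rap2.6L (1.52). Of the largest rises, AT2G18360 (1.47) rose less with ethylene and CYP710A4 (-2.59) rose more. TCH3 (3.22), SQP2 (-1.18) and AT2G19410 (-1.39) also differed. The 5 highest differences were those of the carbonic anhydrase BCA3 (8.56), the peroxidases AT5G19890 (6.03) and AT1G49570 (4.94), ARGOS (5.57) and ERF11 (4.94). AT5G19890 lost its call without ein3eil1 replicate 2 of the untreated group, at an adjusted p of 0.18. AT1G49570 was at 4.84 and 6.00 CPM in untreated Col-0 and 0.122 and 0.353 CPM in untreated ein3eil1, and so was called without ethylene too. The 5 lowest were AT1G05650 (-6.21), the lipid-transfer-like AT5G46890 (-5.78) and AT5G46900 (-5.63), AT4G37950 (-4.90) and EXPA17 (-4.73), none of which was called between untreated ein3eil1 and Col-0.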

How the results depend on the processing

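The number of loci called between untreated ein3eil1 and Col-0, 1255, stayed within 1.5 times under DESeq2 (1468), its size factors (1232), the stricter filter (1239), first transcript models (1233) and without the 2 libraries high in photosynthesis transcripts (1412). It was 1899 with no filter on low counts, 2134 when only the 4 libraries entered the fit, and 514 to 665 when 1 library was left out, where a lone library is assumed to vary like the other groups. For the quadruple mutant against rhd6rsl1 the count of 965 became 2084 with no filter, 604 with only those groups, and 463 to 3357 with 1 library left out, the highest without the quadruple mutant's replicate 1. With ethylene it was 4022 to 4489 with 1 library left out. The difference between backgrounds, 13 loci, became 65 with DESeq2, 231 with no filter, 27 with only those groups, 34 without the 2 libraries, and 5 to 261 with 1 left out. The difference between untreated and treated roots, 2727 loci, was 1769 to 2465 with 1 left out. The causes were not tested. Among the called genes followed under the alternatives, none changed the sign of its fold change. Genes named only from the lists and families drawn up after the values were seen were not followed. The balance of calls turned in places. In the main comparison it turned without Col-0 replicate 2 and without either ein3eil1 library. For the quadruple mutant against rhd6rsl1 it turned without rhd6rsl1 replicate 1. With ethylene, it turned under first transcript models. In the difference between backgrounds it turned without the quadruple mutant's replicate 1 and without rhd6rsl1 replicate 2. It also turned there with no filter, with only those groups and without the 2 libraries high in photosynthesis transcripts. Whether replicate numbers pair the samples is not stated. Deviations of same-numbered untreated Col-0 and ein3eil1 libraries correlated at r = -0.123. Pairs of groups within the letter S ran from r = 0.025 to 0.268, and the remaining pairs were of mixed sign. With replicate number as a block the counts were 1204, 950, 5513, 8 and 2583 in the order above. With the pairing crossed, chosen after seeing the data, the block gave 1258.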

Other observations

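Gene families grouped by annotation after the values were seen gave further counts in untreated roots, all descriptions. Of 162 cytochrome P450 genes, 29 were called higher in ein3eil1 and 5 lower, beside 2.54% and 3.09% of all loci. CYP81F4, of indole glucosinolate synthesis, rose from 204 and 188 CPM to 429 and 491 CPM (1.23 ± 0.15, edgeR adjusted p = 4.9e-05), and CYP83A1 (0.67) and CYP83B1 (0.42) of glucosinolate synthesis were called too. All 7 called genes of 67 GDSL lipases, all 4 of 8 MLP-like genes and all 3 of 14 laccases were higher. Of 59 peroxidases, 12 were lower and 5 higher, and of 23 xyloglucan endotransglucosylases 6 were lower and 1 higher. AT4G37530, a peroxidase, fell from 69.7 and 69.9 CPM to 17.6 and 17.6 CPM (-1.99 ± 0.13, edgeR adjusted p = 4.8e-08). AT1G05240 and AT1G05250, neighbouring peroxidases among which reads may be shared, both fell by 1.00 on the log2 scale. Of 325 ribosomal protein genes, 295 had a fold change above 0, with a median of 0.15, and 2 were called higher and 1 lower. Without overlap, 192 were higher and 9 lower, beside 24.5% and 27.5% of all loci. Of all 22304 tested loci, 10873 had a fold change above 0.

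Root triterpene genes, which lie in clusters on the chromosomes, were mostly higher. In a list of 11 drawn up after the values were seen, 10 were called higher and 1 lower, beside 2.54% and 3.09% of all loci. Thalianol synthase THAS1 rose by 1.06 ± 0.15, CYP708A2 by 1.01 ± 0.12 and CYP705A5 by 0.89 ± 0.11. Marneral synthase MRN1 had a mean of 108 ± 5.6 CPM in Col-0 and 296 ± 20 CPM in ein3eil1 (SD, n = 2), a log2 fold change of 1.46 ± 0.15 (edgeR adjusted p = 9.1e-06). PEN1, a triterpene synthase, fell by 0.51 on the log2 scale (edgeR adjusted p = 0.011). THAS1 and MRN1 were also higher in the quadruple mutant than in rhd6rsl1, by 1.21 and 1.29.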
